A study of Mus musculus with 6 samples.

Results

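Tight junction genes of the irradiated mouse intestine were examined: the claudins Cldn2, Cldn3, Cldn4, Cldn7 and Cldn15, occludin (Ocln), the plaque proteins Tjp1 and Tjp3, and the junctional adhesion molecule F11r. These 9 genes were chosen by name, and all 9 had a probe, among 19057 genes named on the array. They are covered by 13 probes, and each gene is described by its brightest probe. Male C57 mice, 4 weeks old by the sample labels, received 7 Gy of total body radiation and then free ubiquitin (free Ub) or phosphate buffered saline (PBS). Intestine was taken 3.5 days after radiation, and its total RNA was measured on 6 Illumina arrays, 3 from free Ub and 3 from PBS mice. The study's own text gives an earlier time for these arrays and older mice, and describes injection before radiation in other experiments. No source states that each array is a separate mouse, so p-values measure the spread between these samples only. Where free Ub or PBS intestines are named below, the 3 samples of that group are meant. No intestine without radiation is in the series, so each comparison is between free Ub and PBS after radiation. The labels do not say which stretch of intestine was taken.

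Tight junctions close the space between neighbouring epithelial cells near their apical side. Claudins span the membrane and set which ions and how much water pass: Cldn2 and Cldn15 form pores for cations in the gut, while Cldn3, Cldn4 and Cldn7 are counted among the sealing claudins. Occludin and F11r are further membrane proteins of the junction, and Tjp1 and Tjp3 (ZO-1 and ZO-3) tie them to the actin skeleton. In mouse intestine Cldn2 is known as a claudin of the crypts, and its abundance declines after birth as that of Cldn15 increases.

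No difference between free Ub-treated and PBS-treated intestines passed the test for any of the 9 tight junction genes. Differences in mean log2 signal, free Ub minus PBS, ran from -0.17 for Cldn15 to 0.24 for Tjp1, with 4 genes higher and 5 lower and a median of -0.020. The 8861 named genes with a mean log2 signal above 4 had a median of -0.017. By limma 0 of the 9 genes had an adjusted p under 0.05, where 0.053% of all 45281 probes did, and 0 had an unadjusted p under 0.05. That unadjusted share was 5.74% of all named genes and 6.59% of those with a mean above 4. In 0 of the 9 genes did the 3 free Ub values lie wholly above or below the 3 PBS values, which held for 10.8% of the genes with a mean above 4. The 95% intervals of all 9 differences lay within a 2-fold change in either direction. For 1 gene, 3 samples against 3 allow an exact permutation p no smaller than 0.1.

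**Figure D1:**
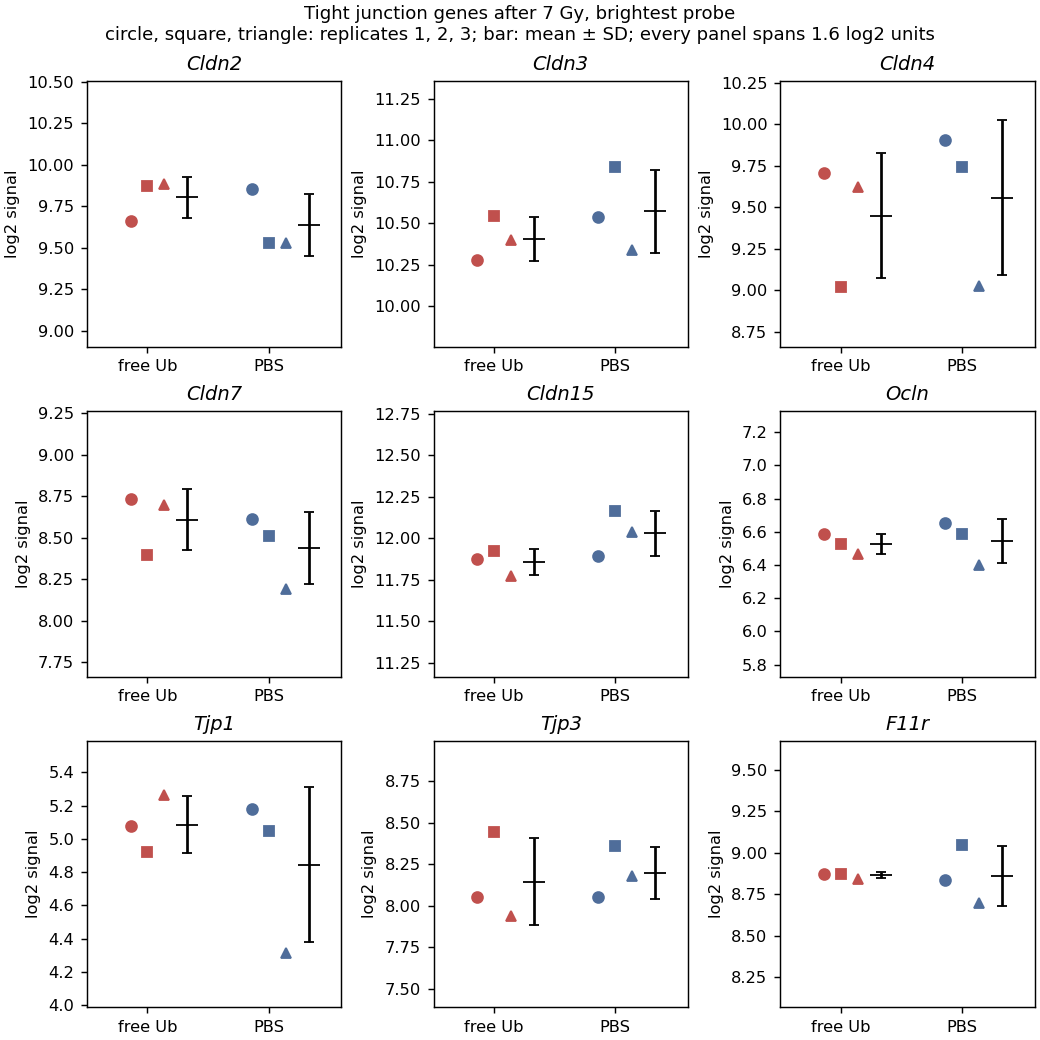
log2 signal of the brightest probe of each of the 9 tight junction genes in 3 free Ub (left, red) and 3 PBS (right, blue) samples, each symbol 1 sample, with the mean ± SD of the group beside it. The free Ub and PBS values overlap in every panel, and PBS 3 (triangle) is the lowest of the 6 for Cldn2, Cldn7, Ocln, Tjp1 and F11r.

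Cldn2, which forms a pore for cations and water, was measured by 2 probes, and both read higher in mean signal with free Ub. The brighter probe had log2 signals of 9.66, 9.87 and 9.88 in free Ub intestines, against 9.85, 9.53 and 9.53 in PBS intestines. Free Ub 2 and 3 lay above all PBS values, and PBS 1 lay above free Ub 1, so the groups overlapped. The difference was 0.17 (95% interval -0.16 to 0.50, limma, adjusted p = 0.872). The other probe had 9.59, 9.996 and 10.06 in free Ub intestines, against 9.49, 9.39 and 9.56 in PBS intestines. On this probe the groups did not overlap, although free Ub 1 was 0.030 above PBS 3. Its difference was 0.40 (95% interval 0.01 to 0.79), or 1.32-fold, with an unadjusted p of 0.0459 and an adjusted p of 0.872 by limma. It was the 1 probe of the 13 with an unadjusted p under 0.05. Without PBS 1 the brighter probe differed by 0.28 (unadjusted p = 0.0410 and adjusted p = 0.868 by limma).

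Cldn15, the claudin that lets sodium pass in the small intestine, was measured by 3 probes that did not share a direction. The brightest had log2 signals of 11.88, 11.92 and 11.77 in free Ub intestines, against 11.89, 12.16 and 12.04 in PBS intestines. Of the free Ub values 1, that of free Ub 2, by 0.030, exceeded the lowest PBS value. The difference was -0.17 (95% interval -0.41 to 0.06, limma, adjusted p = 0.872). The second probe had 11.01, 11.13 and 10.99 in free Ub intestines, against 10.89, 10.87 and 10.998 in PBS intestines, a difference of 0.13 (95% interval -0.03 to 0.29). Free Ub 1 and 2 lay above all PBS values, and free Ub 3 lay 0.0089 below PBS 3. The third and dimmest probe differed by -0.021 (95% interval -0.45 to 0.40). All 3 probes carry the same transcript accession in the platform annotation, and the cause of their disagreement was not tested. Without PBS 1 the brightest probe differed by -0.24 (unadjusted p = 0.0329 and adjusted p = 0.808 by limma).

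Cldn3, a sealing claudin, had log2 signals of 10.28, 10.54 and 10.40 in free Ub intestines, against 10.54, 10.84 and 10.34 in PBS intestines. PBS 2 was the highest and free Ub 1 the lowest, and PBS 3 lay below 2 of the 3 free Ub values. The difference was -0.16 (95% interval -0.58 to 0.25, limma, adjusted p = 0.872). Cldn4, whose gene lies next to Cldn3 on chromosome 5, had 9.71, 9.02 and 9.62 in free Ub intestines, against 9.90, 9.74 and 9.03 in PBS intestines. In each group 1 sample was low, free Ub 2 and PBS 3, and the other two stood at least 0.60 above it. Cldn4 therefore had the largest spread within groups of the 9 genes (0.42 log2) and the widest interval, from -0.97 to 0.75 around a difference of -0.11 (limma, adjusted p = 0.979). Cldn7, which is also found along the lateral membrane of gut epithelial cells, had 8.73, 8.39 and 8.70 in free Ub intestines, against 8.61, 8.51 and 8.19 in PBS intestines. Its lowest pair of samples was the same as for Cldn4, PBS 3 and free Ub 2. The difference was 0.17 (95% interval -0.25 to 0.59, limma, adjusted p = 0.872), and -0.015 without free Ub 1 and PBS 3.

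The starts of 3 claudin genes are shown because of these patterns: Cldn4 and Cldn7 shared their lowest 2 samples, as did Tjp1, and Cldn2 had the probe with the smallest p. Tjp1 is not printed because its windows hold neither of the motifs marked here, so the printed genes were chosen in part by motif. Each line gives the 100 bases before a transcription start in RefSeq (GRCm38.p6), 5′ to 3′ in the direction of the gene. They are chr5:134946935-134947034, minus strand, for Cldn4, chr11:69965321-69965420, plus strand, for the second of 2 starts of Cldn7, and chrX:139800708-139800807, plus strand, for Cldn2. Capitals mark CACCTG or its reverse complement CAGGTG in Cldn4 and Cldn7, and TATAAA in Cldn2.
Cldn4: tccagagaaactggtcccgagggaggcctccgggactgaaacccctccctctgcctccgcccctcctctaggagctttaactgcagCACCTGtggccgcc
Cldn7: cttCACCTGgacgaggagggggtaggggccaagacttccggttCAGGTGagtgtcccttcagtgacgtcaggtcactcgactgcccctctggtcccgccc
Cldn2: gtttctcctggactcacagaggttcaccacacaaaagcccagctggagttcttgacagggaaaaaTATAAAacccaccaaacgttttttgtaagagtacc
CACCTG is an E-box, a motif that Snail repressors bind in mouse claudin promoters, and TATAAA is the core of a TATA box. In the 250 bases before each start, on both strands, CACCTG was found in 6 of the 12 windows of the 9 genes (Cldn4, Cldn7, Ocln, Tjp3 and F11r) and in 17.2% of 32851 RefSeq windows. TATAAA was found in 1 of the 12, at position -35 from the start of Cldn2, and in 12.4% of the windows. The GC box GGGCGG, also searched on both strands, was found in 8 of the 12 and in 32.7% of the windows. Ocln, Tjp3 and F11r hold CACCTG, and their lowest 2 samples were not the pair shared by Cldn4 and Cldn7. These letters were matched without any measurement of binding, and a link between motif and sample pattern was not tested.

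Occludin and the adhesion molecule had small spreads within groups, 0.10 and 0.13 log2, as did Cldn15 (0.11). Ocln, the first membrane-spanning protein identified at tight junctions, had log2 signals of 6.59, 6.53 and 6.47 in free Ub intestines, against 6.66, 6.58 and 6.40 in PBS intestines. The free Ub values lay inside the range of the PBS values, and the difference was -0.020 (95% interval -0.24 to 0.20, limma, adjusted p = 0.979). F11r, the immunoglobulin-like protein JAM-A, had 8.87, 8.87 and 8.84 in free Ub intestines, against 8.83, 9.05 and 8.69 in PBS intestines. The 3 free Ub values lay within 0.032 of each other and again inside the PBS range. The difference was 0.0045 (95% interval -0.26 to 0.27, limma, adjusted p = 0.990).

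The plaque proteins did not share a direction in mean signal. Tjp1, the ZO-1 scaffold, was the dimmest of the members on the array, with log2 signals of 5.08, 4.92 and 5.26 in free Ub intestines, against 5.18, 5.04 and 4.31 in PBS intestines. PBS 3 lay 0.61 below the next lowest sample, and the other 5 lay between 4.92 and 5.26. The difference of 0.24 (95% interval -0.48 to 0.96, limma, adjusted p = 0.909) rested on that sample and was -0.025 without it. Tjp3, the ZO-3 scaffold, had 8.05, 8.44 and 7.94 on its brighter probe in free Ub intestines, against 8.05, 8.36 and 8.18 in PBS intestines. The highest sample and the lowest were both from the free Ub group. The difference was -0.053 (95% interval -0.50 to 0.39, limma, adjusted p = 0.979), and the second probe, which kept free Ub 2 and PBS 2 as the highest 2 samples, differed by -0.015.

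**Figure D2:**
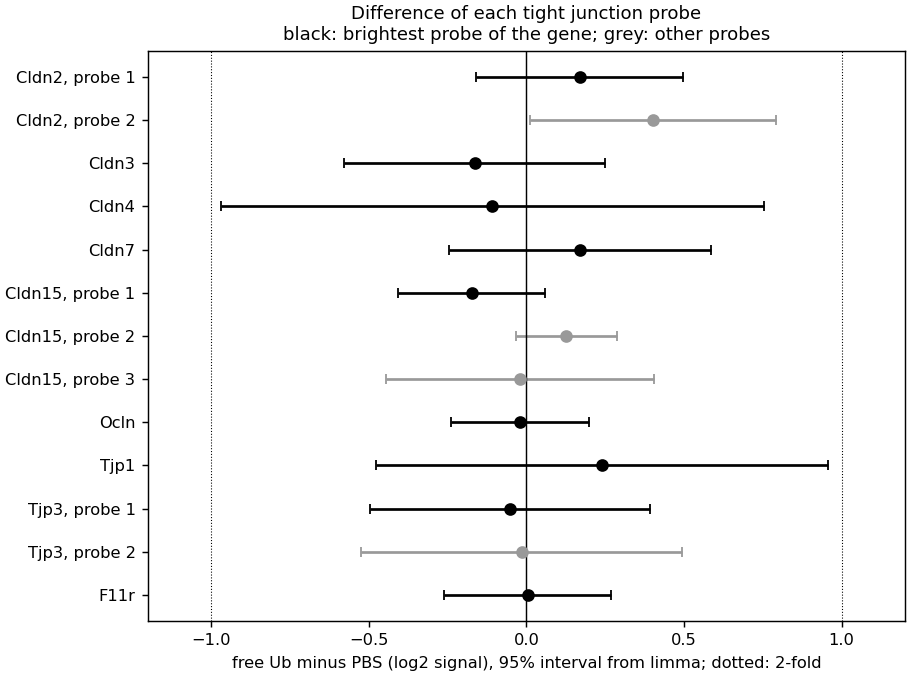
Difference in mean log2 signal, free Ub minus PBS, for the 13 probes of the 9 genes (vertical), with the 95% interval from limma; black marks the brightest probe of a gene and dotted lines a 2-fold change. Every interval lies between -1 and 1, and all include 0 except that of the second Cldn2 probe (0.01 to 0.79).

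By median deviation over the 9 genes, the lowest and the highest sample were both from the PBS group, but this did not hold gene by gene. The median spread within groups was 0.20 log2 for the 9 genes, against 0.23 for genes with a mean above 4, while the median size of the difference between groups was 0.16, against 0.14. PBS 3 was the lowest of the 6 samples for 5 of the 9 genes (Cldn2, Cldn7, Ocln, Tjp1 and F11r; for Cldn2 by 0.00072) and the second lowest for Cldn3 and Cldn4. PBS 2 was the highest for Cldn3, Cldn15 and F11r, and PBS 1 for Cldn4 and Ocln. A free Ub sample was the lowest for Cldn3, Cldn4, Cldn15 and Tjp3, and the highest for Cldn2, Cldn7, Tjp1 and Tjp3. The median deviation of the 9 genes from their own means was -0.17 in PBS 3, 0.088 in PBS 1 and 0.19 in PBS 2. It was between -0.019 and 0.013 in the 3 free Ub samples.

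**Figure D3:**
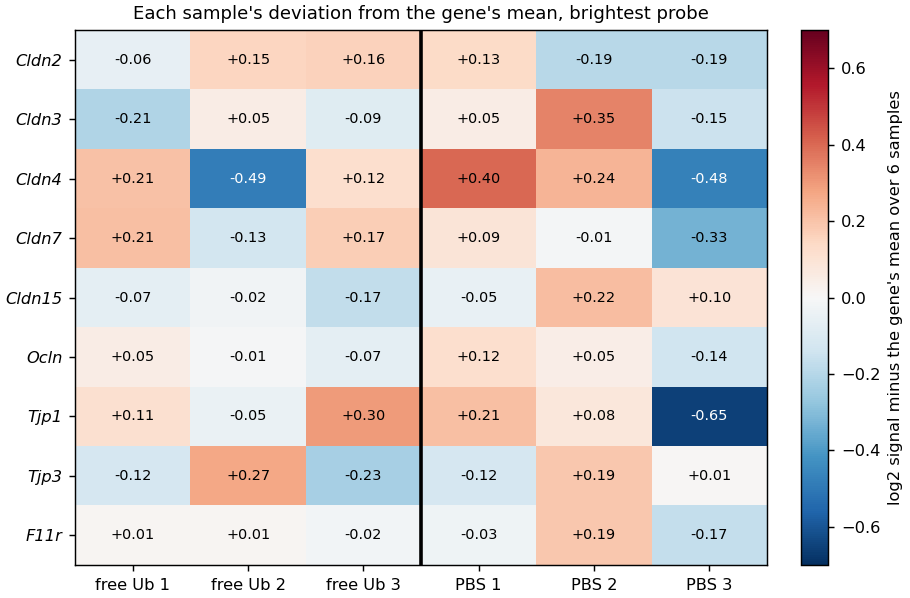
Deviation of each sample (columns) from the gene's mean log2 signal over the 6 samples, for the brightest probe of each of the 9 genes (rows). PBS 3 is below the mean for 7 of the 9 genes, with its largest deviation for Tjp1.

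Epithelial markers were present in all 6 samples. Vil1, villin of the brush border, had log2 signals of 12.51 to 12.87 in free Ub intestines and 12.49 to 12.61 in PBS intestines, and the epithelial adhesion molecule Epcam had 4.38 to 4.87 and 4.34 to 4.68 in the same order of groups. The summed signal of 10 epithelial markers (log2) was 14.98 to 15.26 with free Ub and 14.96 to 15.22 with PBS, lowest in PBS 3. By mean signal 6 of the 10 were higher and 4 lower with free Ub. The one with an unadjusted p under 0.05 was Cdx2, a transcription factor of intestinal epithelium named after its values were seen, with 9.42, 9.67 and 9.57 in free Ub intestines, against 9.86, 9.79 and 9.83 in PBS intestines. Its groups did not overlap, and it differed by -0.27 (unadjusted p = 0.0181 and adjusted p = 0.750 by limma). Of all named genes 5.74% had an unadjusted p under 0.05 by limma, and for 8.76% the groups did not overlap. In whole tissue, fewer epithelial cells and less RNA per cell cannot be told apart. Genes of the exocrine pancreas also gave strong and uneven signals: Prss2, a trypsinogen, had 11.75, 9.63 and 4.70 in free Ub intestines, against 9.68, 7.21 and 11.81 in PBS intestines. The summed signal of 5 such genes was 10.09 to 15.68 with free Ub and 12.85 to 15.85 with PBS, highest in PBS 3 and free Ub 1 and lowest in free Ub 3. That of 6 smooth muscle markers was 12.54 to 12.66 with free Ub and 11.84 to 13.31 with PBS, lowest in PBS 3. Their part in the low tight junction values of PBS 3 was not tested. Without PBS 3 and free Ub 1, 0 of the 9 genes had an unadjusted p under 0.05 by limma, where 8.89% of all named genes did. The count was also 0 with all 6 samples, so it does not show what these 2 samples contribute.

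Other junction genes were taken from lists of 68 genes, of which 63 had a named probe. By mean signal 38 were higher and 24 lower with free Ub, and 1 was at the floor of the signal on all 6 arrays. By limma 0 had an adjusted p under 0.05, and 1 of the 63 an unadjusted p under 0.05, against the 5.74% of all named genes. The groups did not overlap for 3 of the 63, against 8.76% of all named genes. Among the 38 with a mean above 4, differences ran from -0.49 to 0.44 with a median of 0.04.

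Among claudins and membrane proteins, 13 of 25 were higher and 11 lower (median 0.00). Jam2, an adhesion molecule known from vessel endothelium, had log2 signals of 3.44, 3.61 and 3.05 in free Ub intestines, against 4.42, 4.15 and 4.01 in PBS intestines. All free Ub values lay below all PBS values. The difference was -0.83 (95% interval -1.34 to -0.31), with an unadjusted p of 0.00981 and an adjusted p of 0.644 by limma. Its signal was dim, and the endothelial marker Cdh5, VE-cadherin, had 3.75 to 4.48 with free Ub and 3.84 to 4.39 with PBS, while the summed signal of 8 endothelial markers (log2) was 9.11 to 9.46 and 9.36 to 9.68 in the same order. Of these 8 markers 3 were higher (Cldn5 by 1.33, Tek by 0.34 and Cdh5 by 0.04) and 5 lower in mean signal with free Ub. Groups did not overlap for 2 of the 8, Eng and Emcn, against 8.76% of all named genes. Both were named after their values were seen, and all their free Ub values lay below all PBS values. Eng, endoglin, had 5.28, 5.22 and 5.68 in free Ub intestines, against 6.07, 5.88 and 5.92 in PBS intestines, and differed by -0.56 (unadjusted p = 0.0159 and adjusted p = 0.726 by limma). Emcn, endomucin, differed by -0.21 (adjusted p = 0.872 by limma). Their part in the Jam2 values was not tested. Lsr, which marks the contacts where 3 epithelial cells meet, had 8.17, 7.98 and 8.02 in free Ub intestines, against 7.36, 7.67 and 7.92 in PBS intestines. The groups did not overlap, and the difference was 0.41 (95% interval -0.02 to 0.85, limma, adjusted p = 0.872). Cldn5, the claudin of endothelial junctions, differed by 1.33 (95% interval -0.50 to 3.16, limma, adjusted p = 0.872), with PBS values spread from 1.41 to 3.89. The brightest of the list were Igsf5, an adhesion molecule of the junction, which differed by 0.07, and the virus receptor Cxadr, which differed by -0.03.

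Among plaque and polarity proteins 15 of 22 were higher and 7 lower (median 0.16), and 0 had an unadjusted p under 0.05. The smallest p-values belonged to Pals1 and Pard6a, scaffolds of cell polarity, which differed by 0.44 and 0.24, and to Ybx3, a nucleic acid binding protein that joins Tjp1 at the junction, which differed by -0.49 (limma, adjusted p = 0.872 for each). The brightest were Mylk, the kinase whose action on myosin loosens tight junctions, which differed by 0.26 (12.33 ± 0.13 in free Ub intestines and 12.07 ± 0.41 in PBS intestines, SD, n = 3 each), and Afdn, afadin, which differed by -0.26. Smooth muscle also makes Mylk, and its lowest value, 11.68, was in PBS 3. Groups also did not overlap for Cttn, cortactin, which was dim and had 3.90, 4.39 and 4.29 in free Ub intestines, against 1.42, 3.61 and 3.89 in PBS intestines. Free Ub 1 lay barely above PBS 3 (3.899 against 3.895), and PBS 1 was far below the other samples. Cttn was named after its values were seen.

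The neighbouring adherens junctions and desmosomes gave the same picture, with 10 of 16 genes higher and 6 lower (median 0.08) and 0 at an unadjusted p under 0.05. The catenins Ctnna1 and Ctnnb1, which link cadherins to actin, were the brightest and differed by -0.03 and 0.15. Those with the smallest p were Jup, plakoglobin, whose signal sat at the floor in the 3 free Ub samples and in PBS 1, Cdh17, the cadherin of intestinal epithelium, which differed by 0.32, and Ctnnd1, p120 catenin, which differed by 0.29 (limma, adjusted p = 0.872 for each).

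**Figure D4:**
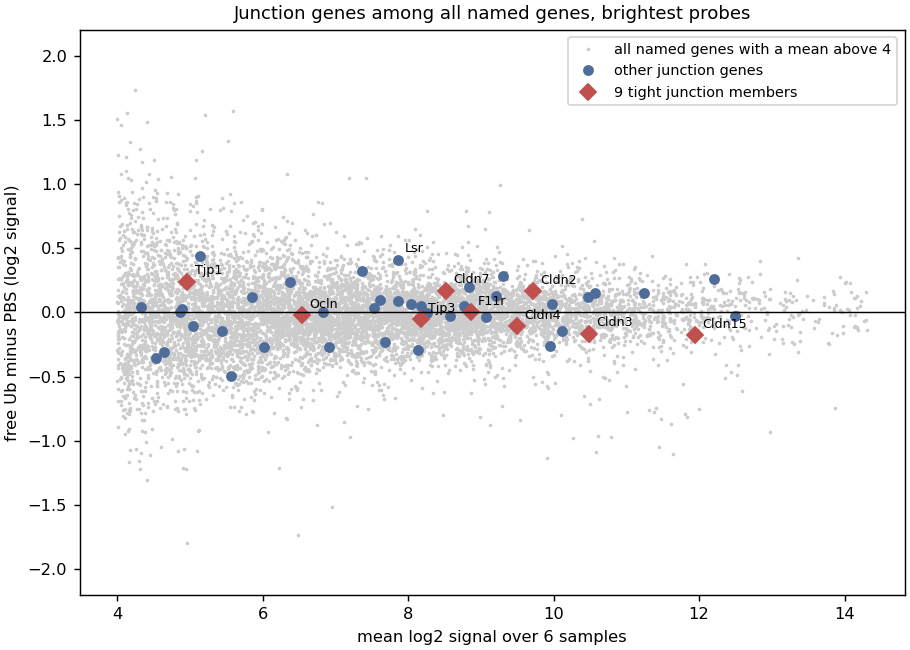
Difference in mean log2 signal, free Ub minus PBS (vertical), against the mean log2 signal over the 6 samples (horizontal) for named genes with a mean above 4, with the 9 tight junction genes as red diamonds and other junction genes as blue circles. The 9 genes lie between -0.17 and 0.24, inside the cloud of all genes.

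Cldn10 differed from the 9 genes in how it varied, and was named after its values were seen. This claudin, which is made in epithelia including the acini of the pancreas, had log2 signals of 6.57, 4.68 and 3.33 in free Ub intestines, against 5.10, 2.86 and 6.61 in PBS intestines. It was highest in PBS 3 and free Ub 1 and lowest in PBS 2 and free Ub 3, as were 5 exocrine pancreas genes by summed signal, while Cldn3 stayed between 10.28 and 10.84 in all 6. A link between Cldn10 and the pancreas genes was not tested. The group means of Cldn10 differed by 0.00 (95% interval -3.58 to 3.58, limma, adjusted p = 1.00).

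**Figure D5:**
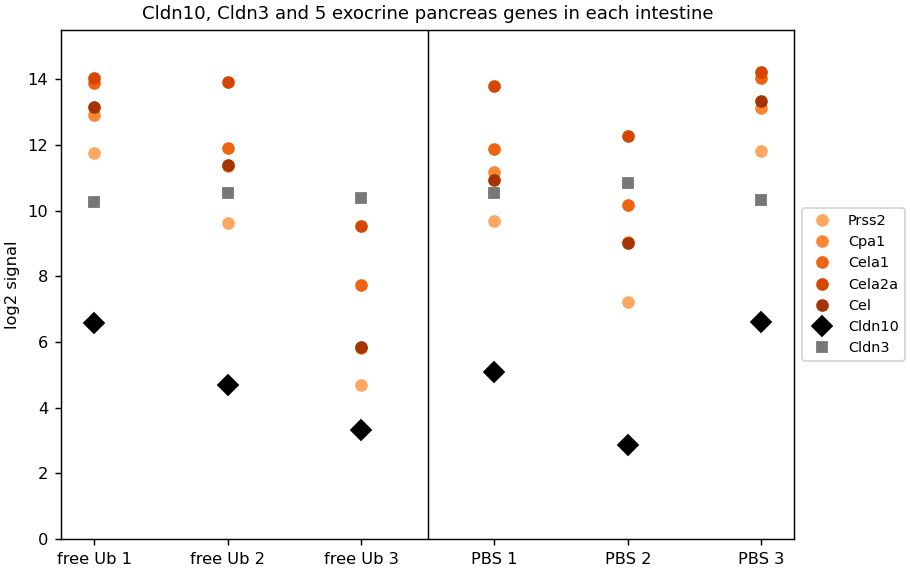
log2 signal of Cldn10 (black diamonds), Cldn3 (grey squares) and 5 exocrine pancreas genes (orange circles) in each sample, free Ub on the left and PBS on the right. Cldn10 reads 6.57 in free Ub 1 and 6.61 in PBS 3, where the pancreas genes are also highest, and 3.33 in free Ub 3, where they are lowest. Its own lowest value, 2.86, is in PBS 2, where the summed signal of the pancreas genes (log2) is 12.85, against 10.09 in free Ub 3.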

How the data were processed

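RNA of 6 intestine samples was hybridized to Illumina MouseWG-6 v2 BeadChips. The authors normalized the signals by cubic spline in GenomeStudio (version not given in the sources used here), and the deposited values were taken to be log2 signals because they end at 14.49, since no source states the transform. The 6 columns share a median of 2.55 and an upper quartile of 5.32. Between 32.2% and 33.7% of values per array lie within 0.01 of the array's lowest, here called the floor. Background handling and detection p-values are not given in the sources used here. The number of arrays limits the precision.

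Probes were named by the platform annotation (34885 of 45281 with 1 symbol, 18 with several), with older symbols updated through gene IDs. Each gene was described by its brightest probe (mean of 6 arrays). All 45281 probes were fitted in R 4.3.3 with limma 3.58.1 (free Ub minus PBS, moderated test, two-sided, Benjamini-Hochberg over all probes, threshold 0.05). The procedure was tested on simulated data. Samples were grouped by their titles. The members and lists were chosen with earlier results of these data known. Named beyond the 9 members were, of each junction list, the 3 genes with the smallest p and the 2 brightest, and fixed cell type markers. The fixed markers were Epcam, Vil1, Cdh5, Acta2, Ptprc and Prss2. Outside this rule, Cttn, Cldn10, Cdx2, Eng, Emcn, Tek, Axin2, Sox10, Apoa4, Lgr5, Smoc2 and Olfm4 were named after their values were seen. Promoter windows came from RefSeq (GRCm38.p6).

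The alternatives tried were array weights, an intensity-trended robust prior, a replicate block, a filter on dim probes, raising low values to 4 or 6, median centring or quantile normalization, the methods' t-tests, the mean of a gene's probes, and leaving out each sample. Leaving out free Ub 1 and PBS 3 together was added after the data were seen.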

Additional observations from a re-analysis of the deposited data

How the results depend on the processing

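The count of tight junction genes at an adjusted p under 0.05 was 0 of 9 in every alternative run. At an unadjusted p under 0.05 it was 2 with array weights in limma (Cldn2, 0.26, and Cldn15, -0.20; adjusted p = 0.623 and 0.611; 8.28% of all named genes) and 0 to 2 when 1 sample was left out, the 2 being Cldn2 and Cldn15 without PBS 1, where 5.78% of all named genes were called. Genes whose groups did not overlap numbered 0 to 2 without 1 sample, where 18.2% to 24.5% of genes with a mean above 4 did not overlap, and 3 without free Ub 1 and PBS 3, where 40.0% did not. Other junction genes at an unadjusted p under 0.05 numbered, of 63, 4 with array weights (8.28% of all named genes), 3 with the replicate block in limma (6.07%), 3 with the methods' paired t-test (4.06%), 2 when probes of a gene were averaged (5.74%), 2 without free Ub 1 and PBS 3 (8.89%), and 1 to 5 when 1 sample was left out (5.49% to 7.77%; 5 without PBS 3, at 7.77%), against 1. No pairing by replicate number showed in the values: deviations of same-numbered samples correlated at -0.07, -0.09 and -0.40 across genes. Of the 6 samples 0 correlated best with its own number. This check cannot exclude pairing, because deviations from the mean of 3 samples are tied to each other. Cldn2, Cldn3 and Cldn15 kept their direction in all 18 alternatives, but many of these could not turn it. Those that change only the test, raise low values or filter dim probes returned the same difference. All but the averaging of probes used the brightest probe, while the second Cldn15 probe differed by 0.13. The size changed: Cldn3 was -0.28 to -0.031 without 1 sample (-0.031 without PBS 2). In the same runs Cldn2 was 0.12 to 0.28 and Cldn15 -0.24 to -0.11, or -0.023 when its probes were averaged. The others changed sign in some, with a turned value of at most 0.15 in size. With array weights Cldn4 differed by 0.15 and Ocln by 0.059. Without free Ub 1 and PBS 3, Cldn7 differed by -0.015, Tjp1 by -0.020 and F11r by -0.083. The largest differences of the 9 genes in any alternative kept their sign. They were 0.52 for Tjp1 with array weights and -0.50 for Cldn4 without free Ub 1 and PBS 3. Without 1 sample the range was -0.37 to 0.11 for Cldn4, -0.078 to 0.10 for F11r, -0.093 to 0.035 for Ocln, -0.025 to 0.41 for Tjp1 and -0.20 to 0.049 for Tjp3. Tjp1 gave no value when low values were raised to 6, under which all its values lie.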

Other observations

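Of 6 crypt stem and dividing cell markers 5 had a higher mean in free Ub intestines and 1 a lower one (median difference 0.41), with 1 at an unadjusted p under 0.05 in limma (Axin2, a target gene of Wnt signalling, 0.42, adjusted p = 0.872 by limma) and 0 after adjustment. In 3 other lists 1 marker each was lower at an unadjusted p under 0.05, with 0 after adjustment by limma: Cdx2 in epithelium (-0.27, adjusted p = 0.750), Eng in endothelium (-0.56, adjusted p = 0.726) and Sox10 in enteric neurons and glia (-0.42, adjusted p = 0.785). By limma 5.74% of all named genes had an unadjusted p under 0.05. In the marker lists the groups did not overlap for Axin2, Cdx2, Eng and Sox10, nor for Emcn (-0.21) and the villus gene Apoa4 (-0.14). Of all named genes 8.76% did not overlap. These markers were named after their values were seen. The summed signal of the crypt markers (log2) was 8.62 to 9.87 in free Ub intestines and 8.72 to 9.75 in PBS intestines. Among the crypt markers Lgr5 was the lower one (-0.05). Smoc2 sat at the floor in 2 free Ub and 2 PBS samples, and Olfm4 ranged from 6.47 in free Ub 1 to 8.90 in PBS 3. Of 8 villus enterocyte genes 3 were higher and 5 lower (median -0.076), with summed signals of 15.82 to 15.92 with free Ub and 15.81 to 16.06 with PBS. Of 7 Paneth and goblet cell genes 2 were higher and 5 lower (14.89 to 15.53 with free Ub and 15.29 to 15.37 with PBS). Of 10 epithelial markers 6 were higher and 4 lower, of 8 endothelial markers 3 were higher and 5 lower, and all 6 smooth muscle markers were higher and all 5 exocrine pancreas genes lower in mean signal, with 0 of these 11 at an unadjusted p under 0.05. Of 6 immune cell markers 4 were higher and 2 lower (9.08 to 9.84 with free Ub and 9.08 to 10.05 with PBS), and of 4 enteric neuron and glia markers 1 was higher and 3 lower (5.23 to 5.73 with free Ub and 5.49 to 5.71 with PBS). The leukocyte marker Ptprc had 2.53 to 3.53 with free Ub and 2.41 to 3.46 with PBS, and the smooth muscle actin Acta2 had 11.88 to 12.03 and 11.33 to 12.58 in the same order.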
